A study of Mus musculus with 195 samples.

Results

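Genes with distant 3′ ends are those whose transcripts are cut and polyadenylated at a pair of sites far apart, so that their mRNAs differ by a long stretch at the 3′ end. They were selected on their measured counts: over all 144 cells, the 2 most used polyadenylation sites of a gene each had to hold at least 10 transcript molecules and lie 1000 to 20000 nt apart. Sites had to be annotated transcript ends, positions in the last exon or positions downstream of the gene. Of 1342 genes with 2 sites of at least 10 molecules, out of 18351 genes with any site of these 4 kinds, 410 met the rule and gave 820 sites. Another 916 genes had nearer sites, and 16 had sites over 20000 nt apart. The share of molecules on the pair that ended at the site farther from the start of the gene is called the distal share. It could be computed for the 409 genes with an annotated strand.

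Transcript molecules were counted per polyadenylation site by BATSeq, a method that tags the 3′ ends of polyadenylated RNA of a sorted cell with a cell barcode and a random molecular identifier. The cells were 48 ESC-2i, mouse embryonic stem cells grown with PD0325901 at 1 µM, CHIR99021 at 3 µM and LIF at 10 ng/ml, 48 ESC-FCS, grown with 10% serum and LIF at 10 ng/ml, and 48 NSC, neural stem cells. All derive from the mouse ES cell line 46C, whose Sox1 locus carries GFP, the NSC by differentiation in culture, and all were sorted for G1 DNA content. Each population is 1 culture in 2 library batches of 24 cells, so no test between populations was possible, and every interval covers counting error alone.

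PD0325901 blocks the kinase MEK and CHIR99021 the kinase GSK3, and with LIF they hold embryonic stem cells in a ground state of pluripotency. Polyadenylation starts when the CPSF complex binds a hexamer, most often AATAAA, and cuts the transcript a short way downstream. A site near the stop codon gives a short 3′ untranslated region, while read-through to a distal site adds sequence that can hold binding sites for microRNAs and RNA-binding proteins. Neural tissue is known for long 3′ untranslated regions.

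The pairs were mostly tandem sites of the last exon. In 301 of 409 genes, both sites lay in 1 annotated exon and touched no exon of another gene, with a median distance of 1661 nt. In 53 genes they lay in different exons (median 6076 nt), in 31 the distal site lay past the annotated end of the gene (median 3487 nt), and in 22 the region between them touched an exon of another gene (median 5279.5 nt). In this last group molecules of the gene and of its neighbour cannot be told apart, as with Serf2 and Hypk. The remaining 2 genes belong to the mitochondrial genome. The word tandem thus covers these 301, and any pair of the group of 22 that also lies in 1 exon, such as that of Snhg20. Over all 410, distances ran from 1004 to 19286 nt with a median of 1923 nt; 213 were under 2000 nt and 60 over 5000 nt. By annotation, 402 were protein-coding.

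**Figure D1:**
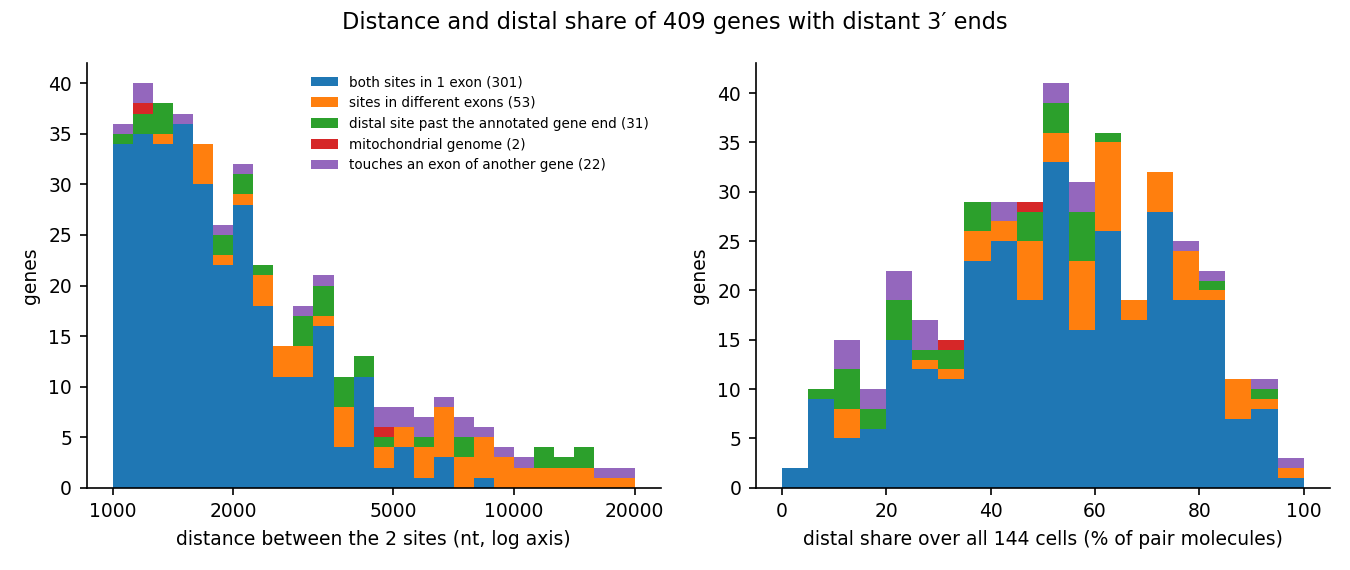
Distance between the sites (left, nt on a log axis) and distal share over all cells (right, percent of the molecules on the pair) for 409 genes, as stacked counts coloured by the kind of pair. The 301 pairs within 1 exon that touch no other gene fill the short distances, and 325 genes have a distal share of 20% to 80%.

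The sequence before each site was read from GENCODE M21 transcripts on mouse build GRCm38. For each of the pairs shown here, the 30 bases that end at the site are printed from 5′ to 3′ on the strand of the gene, with the polyadenylation hexamer in capitals. Tmed10, Rac1, Kpnb1 and Hnrnpc are shown because their distal share was far higher in NSC than in ESC-2i, Hnrnpa1 because its was lower, and Set because its proximal site held no molecule in NSC.
Tmed10 proximal: tctcattttagaccATTAAAatgtttgtgc
Tmed10 distal: aactttcacaAATAAAagctagcagaaacc
Rac1 proximal: ttccaacttacagtctATTAAAattcagcc
Rac1 distal: tgcatgtatgaattAATAAAtccttgaatc
Kpnb1 proximal: tgttgaacgatctGATAAAataaccatttg
Kpnb1 distal: ttctgAATAAAgtccgctttatttttattt
Hnrnpc proximal: ttgacttaacAATAAAaagttgtatggttt
Hnrnpc distal: ggttaaagatgctaataAATAAAacctgtt
Hnrnpa1 proximal: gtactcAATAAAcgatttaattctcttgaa
Hnrnpa1 distal: ctttggtttttttttttaAATAAActtttt
Set proximal: tcttgagcaaAATACAacaggaaaagaatc
Set distal: aatcttgctccAATAAAggaacataaagat
The Tmed10 windows lie on the minus strand at chr12:85342797-85342826 and chr12:85340615-85340644. Those of Rac1 are on the minus strand at chr5:143506772-143506801 and chr5:143505484-143505513, and those of Kpnb1 on the minus strand at chr11:97161539-97161568 and chr11:97159719-97159748. Hnrnpc is on the minus strand, with windows at chr14:52074802-52074831 and chr14:52073552-52073581. Hnrnpa1 is on the plus strand, with windows at chr15:103244928-103244957 and chr15:103246657-103246686, and Set on the plus strand, at chr2:30071111-30071140 and chr2:30072538-30072567. In 5 of these 6 genes, both sites lie in 1 exon; the sites of Hnrnpa1 lie in different exons.

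Distal sites carried the canonical hexamer more often than proximal ones. Windows of 40 nt before the site were searched on the transcript strand for AATAAA first and for ATTAAA next. The rarer variants followed, namely AGTAAA or TATAAA or CATAAA or GATAAA or AATATA or AATACA or AATAGA or ACTAAA. The first found in this order was taken, so a window counts once. AATAAA was present in 78.9% of 356 distal and 56.8% of 396 proximal windows, and ATTAAA, its commonest variant, in a further 13.8% and 14.6%. None of the 10 was found before 2.25% of distal and 14.6% of proximal sites. In the middle of the region between the sites, AATAAA was found in 0.328% of 305 windows and none of the 10 in 87.5%. The median distance from the end of the hexamer to the site was 14 nt at proximal and 13 nt at distal sites. Among the genes with sites nearer than 1000 nt, AATAAA preceded 52.8% of 866 proximal and 62.8% of 809 distal sites. These values were not used to choose the members. Hexamer matches describe the letters in the window alone.

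**Figure D2:**
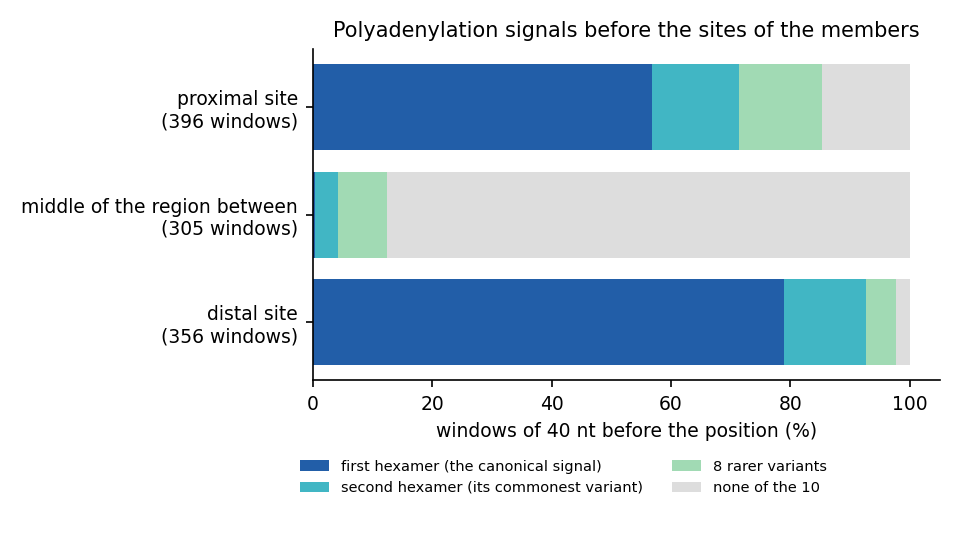
Share of 40 nt windows (percent) that hold the canonical polyadenylation hexamer, its commonest variant, one of 8 rarer variants or none of the 10, before the proximal site, in the middle of the region between the sites and before the distal site. Distal sites have the canonical hexamer in 78.9% of windows and proximal sites in 56.8%.

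A stretch of A after a site can prime the reverse transcription inside a transcript. At least 12 A in the 20 transcript bases after the site followed 36 of 352 proximal sites that could be read and 1 of 93 distal sites. Among pairs in different exons it was 13 of 24 proximal sites. Hsp90aa1, a heat shock chaperone, Scd2, Nedd4 and Mpp6 had such a stretch after the proximal site, and in Hsp90aa1, Scd2 and Nedd4 none of the 10 hexamers stood before it. For 303 genes the region between the sites lay within 1 exon and could be read: its median GC content was 42.9%, and 272 of the regions held at least 1 ATTTA, the core of AU-rich elements that bind RNA-binding proteins, at 1.78 per 1000 nt.

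A few genes held much of the data. The pairs had 46845 molecules, 22735 for ESC-2i, 14664 for ESC-FCS and 9446 for NSC, out of 371397, 234054 and 154565 molecules on genes. Npm1, Hsp90aa1, Rpl22 and Kxd1 alone gave 10887 of them (23.2%). The most used site had a median of 40.5 molecules and the second one 15. At least 20 molecules on the pair were found for 279 genes in ESC-2i, 188 in ESC-FCS, 113 in NSC and 94 in all 3. Cells gave 19 to 21038 molecules on genes before any filter, and 109 of 144 gave at least 1000. The 144 cells carried 6 batch barcodes, each used in 1 population, and the same 24 cell barcodes in every batch.

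The labels of the populations were checked against markers. Summed over 8 ESC markers, 22.2 molecules per 10000 were found for ESC-2i, 23.1 for ESC-FCS and 0.129 for NSC, where 6 of the 8 were at 0. The 8 NSC markers summed to 1.97, 1.79 and 50.1 per 10000, and 7 of the 8 were highest in NSC. Fabp7 gave 380 of the 774 molecules in NSC, and Pax6 had 0 there against 4 in ESC-FCS. The 5 neuronal markers were at 0.188, 0.855 and 4.46 per 10000, with 4, 2 and 1 of them at 0. Map2 gave 60 of the 69 molecules in NSC, where Tubb3, Dcx and Rbfox3 had 5, 2 and 2, and their part in the differences of NSC was not tested. The 3 astrocyte markers summed to 0.539 per 10000 in ESC-2i and to 0 in the other populations. Extraembryonic endoderm and fibroblast markers each summed to at most 2 molecules in a population.

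Over all cells, the distal site was the more used in 219 genes, the proximal one in 178, and both were equal in 12. The median distal share was 53.1%, with 37 genes under 20% and 47 over 80%. Those near the limits of the rule show how it cuts. The second site of Atf1, Btbd1 and Btg2 held 10 molecules, just inside, and that of Acadm, Agps and Arhgap45 held 9, just outside; 53 genes stood at 10 and 43 at 9. In distance, Pafah1b2 at 1004 nt, Rbm8a at 1006 nt and Gfer at 1007 nt were just inside, and Dnaja2 at 999 nt, Snrnp200 at 992 nt and Cdk16 at 991 nt just outside. At the upper limit, Dnajb6 at 19286 nt, Rab3a at 18969 nt and Mpp6 at 17765 nt were inside, and Rbpms at 21317 nt, Ttc3 at 26552 nt and Papola at 29236 nt outside.

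The distal site was used more in NSC than in either embryonic population. Of the summed molecules on the pairs, 51.9% (95% exact Clopper-Pearson interval 51.2% to 52.5%) were distal for ESC-2i, 55.0% (54.2% to 55.8%) for ESC-FCS and 63.1% (62.1% to 64.0%) for NSC. By library batch the shares were 52.9% and 51.0% in ESC-2i, 55.5% and 54.4% in ESC-FCS, and 63.8% and 62.2% in NSC. The batches of different populations did not overlap. Without the 4 most used genes the order stayed, at 46.3%, 48.5% and 59.3%. Among pairs within 1 exon it was 41.9%, 45.7% and 61.2%. The 914 genes with nearer sites gave 46.8%, 46.6% and 59.2%, so a higher pooled distal share in NSC was not particular to distant pairs. Pooled shares weight each gene by its molecules, so they also move with the levels of the genes. Per gene, with at least 20 molecules on the pair in both populations, NSC minus ESC-2i had a smaller median for nearer sites. It was 2.86 percentage points over 321 such genes, beside 8.89 over 103 genes with distant sites.

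Per gene, differences were computed where both populations had at least 20 molecules on the pair. For NSC minus ESC-2i, the median over 103 genes was 8.89 percentage points, with 79 genes higher and 22 lower, and the medians of the 4 pairs of library batches ran from 5.49 to 11.1. Without NSC batch 1 the median was 4.16 points, and in reads in place of molecules 5.64 points. Across all 429 genes with 2 sites that could be compared, near ones included, the median was 3.92 points. For ESC-FCS minus ESC-2i, the median was 3.27 points over 176 genes (batch pairs 1.65 to 3.48, and 2.20 without ESC-FCS batch 1) and 1.13 points over all 660. For NSC minus ESC-FCS, it was 6.17 points over 98 genes (batch pairs 3.77 to 7.86) and 1.88 points over all 399. When each batch itself had to hold at least 20 molecules, the last comparison differed by NSC batch: medians were 8.71 and 7.40 points with NSC batch 1, over 44 and 34 genes, and -0.0545 and 0.556 points with NSC batch 2, over 34 and 31 genes. The 3 comparisons share populations and are not independent of one another. Library batches of the same population differed by a median of 6.32 to 6.53 points in absolute value per gene.

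In 94 genes with at least 20 molecules in all 3 populations, the highest distal share was in NSC for 56, in ESC-FCS for 24 and in ESC-2i for 14, and the lowest was in ESC-2i for 55. The medians over these genes were 38.3% for ESC-2i, 45.7% for ESC-FCS and 56.5% for NSC. With distance, the median of NSC minus ESC-2i was 1.79 points for 172 genes with sites under 200 nt apart, 4.29 points for 149 genes at 200 nt to under 1000 nt, 8.97 points for 70 genes at 1000 nt to under 2000 nt and 7.75 points for 33 genes at 2000 nt or more. For ESC-FCS minus ESC-2i it was 0.302, 2.07, 4.37 and -0.588 points, so it was not above 0 in the median at 2000 nt or more.

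A difference of at least 20 points was taken as the size limit. For NSC minus ESC-2i, 23 of the 103 genes were higher by that much, and the same rule met 11.9% of all genes with 2 sites; 4 were lower (Serf2, Hnrnpa1, mt-Tf and Cbx5), against 1.86% of all. In 22 of the 23, all 4 pairs of library batches had the same direction. Without NSC batch 1, the larger of the NSC batches, 6 genes were higher by the limit. Only 48 genes had at least 20 molecules on the pair in NSC batch 2 alone, and 59 in ESC-FCS batch 2 alone. The counts without a batch given here thus rest on fewer genes than the others. They were not made over all genes with 2 sites. For ESC-FCS minus ESC-2i, 17 of 176 were higher and 9 lower, against 5.61% and 3.64% of all, and without ESC-FCS batch 1 the counts were 6 and 4. For NSC minus ESC-FCS, 15 of 98 were higher, against 8.27% of all, and 3 lower (Arf3, Knop1 and Caprin1), against 1.75%. Without NSC batch 1 the higher count was 5, and without ESC-FCS batch 1 it was 6 and the lower count 0. Direction alone, taken as the same sign in all 4 pairs of library batches, was higher for 46 and lower for 7 of the 103 genes for NSC minus ESC-2i, against 36.4% and 9.56% of all. It was higher for 49 and lower for 26 of 176 for ESC-FCS minus ESC-2i, against 24.1% and 13.8%, and higher for 34 and lower for 10 of 98 for NSC minus ESC-FCS, against 24.8% and 11.5%.

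**Figure D3:**
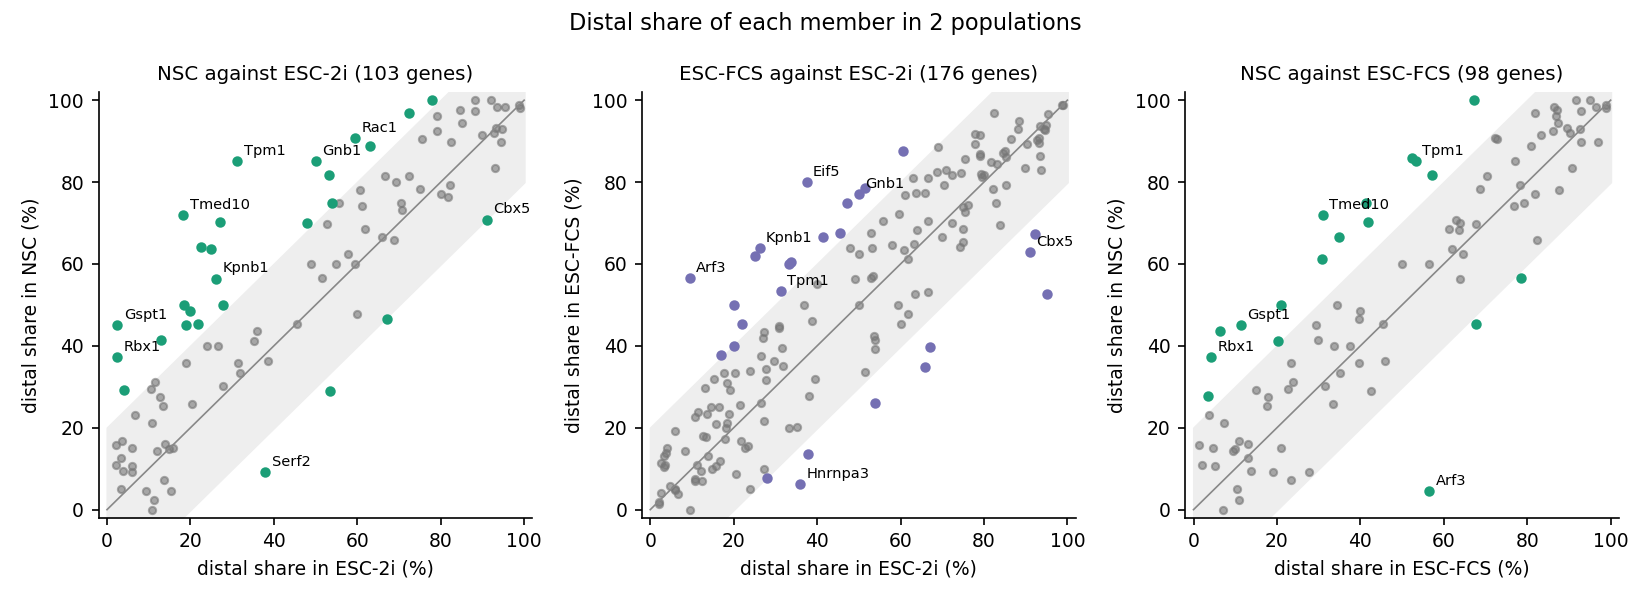
Distal share (percent) of each gene in 2 populations, for genes with at least 20 molecules on the pair in both, with the line of equal shares and a grey band of 20 points on either side. Coloured points lie outside the band: 27 of 103 genes for NSC against ESC-2i, 26 of 176 for ESC-FCS against ESC-2i and 18 of 98 for NSC against ESC-FCS.

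Libraries that had no part in the choice of genes were made from the embryonic populations: 2 pools of 48 ESC-2i cells, 1 pool of 48 ESC-FCS cells and 48 single ESC-FCS control cells. Their pooled distal shares were 52.2% and 52.8% for the ESC-2i pools, 58.7% for the ESC-FCS pool and 57.7% for the control cells, so the order of the media was kept. Gene by gene, they stood apart from the single cells of the same medium. The median absolute difference from the ESC-2i cells was 13.6 points for the first pool (243 genes) and 16.7 points for the second (245 genes), where the pools differed from each other by 5.92 points (303 genes). Past 20 points, the first pool was higher than the ESC-2i cells for 50 genes and lower for 36, against 16.9% and 10.8% of all genes with 2 sites. The second pool was higher for 61 and lower for 40, against 18.5% and 10.3%. For ESC-FCS, the pool and the control cells each differed from the main cells by a median of 9.76 points, and from each other by 5.87 points. Past 20 points, the ESC-FCS pool was higher than the main cells for 28 of 151 genes and lower for 9, against 13.3% and 6.19% of all, and the control cells for 19 and 15 of 157, against 11.4% and 4.52%. The second ESC-2i pool was higher than the first for 27 of 303 genes and lower for 10, against 7.4% and 3.42%, and the control cells were higher than the ESC-FCS pool for 3 of 166 and lower for 11, against 3.53% and 4.77%. The values for the ESC-2i pools were above the median absolute differences between single batches of NSC and ESC-2i, which ran from 7.41 to 13.3 points. Those cover only 39 to 51 genes with at least 20 molecules in each single batch, so the sets of genes are not alike. What sets the separate libraries apart was not tested. Well used sites were seldom missing: of 125 proximal and 122 distal sites with at least 20 molecules in ESC-2i cells, 2 and 2 had none in both pools (the proximal sites of Serf2 and mt-Tf, and the distal sites of mt-Tf and Trappc6b). All 51 of these libraries carry batch barcodes that were also used for the single cells.

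For the 21 genes that were at least 20 points higher in NSC than in ESC-2i cells and had 20 molecules in both ESC-2i pools, the pools could take the place of the cells. NSC was then higher than both pools in 15, by at least 20 points in 5 (Tmed10, Gspt1, Kpnb1, Hnrnpc and Tomm70a), and lower than both in 3 (Sar1a, Gnb1 and Rac1). The median of NSC cells minus a pool was 7.65 points over 98 genes and 5.67 points over 97, beside 1.59 and 0.180 points over all genes with 2 sites. Higher by the limit were 23 and 22 genes, against 15.3% and 14% of all. Lower by it were 10 and 12, against 8.7% and 11.5%, where the ESC-2i cells had given 4. With ESC-FCS libraries in place of the ESC-FCS cells, the medians of NSC were 0.827 points against the pool (89 genes) and 4.85 points against the control cells (98 genes). Against the pool 11 genes were higher by the limit and 14 lower, beside 9.83% and 13.6% of all, and against the control cells 19 and 8, beside 10.8% and 10.5%.

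Membrane traffic and GTPase signalling held several of the largest values. Of 19 such genes, 9 could be compared between NSC and ESC-2i, with a median of 28.5 points beside 3.92 over all genes with 2 sites. By the limit 5 were higher, against 11.9% of all, and none lower, against 1.86%, but 3 of the 5 (Sar1a, Gnb1 and Rac1) were lower in NSC than in both ESC-2i pools. Tmed10, a cargo receptor of vesicles between the endoplasmic reticulum and the Golgi, had 49 proximal and 11 distal molecules in ESC-2i, 29 and 13 in ESC-FCS, and 14 and 36 in NSC. Its distal share was thus 18.3% (9.52% to 30.4%), 31.0% (17.6% to 47.1%) and 72.0% (57.5% to 83.8%), and the NSC batches, at 77.4% and 63.2%, stood above all others. The ESC-2i pools gave it 60 proximal and 13 distal molecules, and 82 and 5, both on the side of the ESC-2i cells.

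Rac1 and Gnb1 behaved differently in the pools. Rac1, a small GTPase of the actin cytoskeleton, had a distal share of 59.6% (48.6% to 69.8%) for ESC-2i, 72.2% (54.8% to 85.8%) for ESC-FCS and 90.8% (81.9% to 96.2%) for NSC, but the pools held 13 proximal and 191 distal molecules, and 1 and 254. Gnb1, a beta subunit of heterotrimeric G proteins, stood at 50.0% in both ESC-2i batches, 88.9% and 61.9% in those of ESC-FCS and 82.1% and 88.5% in those of NSC. In the pools it had 9 proximal and 133 distal molecules, and 26 and 165. For both genes the NSC share was therefore below that of the ESC-2i pools.

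Sar1a, the GTPase that starts COPII vesicle coats, had 33 proximal and 11 distal molecules in ESC-2i, 8 and 13 in ESC-FCS, and 8 and 14 in NSC. Its pools were distal throughout, with 15 proximal and 116 distal molecules, and 6 and 146. Rab2a, a GTPase of early secretory transport, went from 53.3% (37.9% to 68.3%) in ESC-2i to 81.8% (64.5% to 93.0%) in NSC, and with all sites of the gene in the denominator the difference was 11.5 points in place of 28.5. The pools lay on either side of NSC, at 32 proximal and 24 distal molecules, and 10 and 59. Cdc42, a GTPase of cell polarity, was nearly all distal, at 94.7%, 92.7% and 93.0% in the 3 populations.

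Arf3, an ADP-ribosylation factor of the Golgi, was the gene in which ESC-FCS differed most from both other populations. It had 77 proximal and 8 distal molecules in ESC-2i, 10 and 13 in ESC-FCS, and 63 and 3 in NSC, that is 9.41% (4.15% to 17.7%), 56.5% (34.5% to 76.8%) and 4.55% (0.947% to 12.7%). Its ESC-FCS batches were at 71.4% and 33.3%, and without the first one the difference from ESC-2i was 23.9 points in place of 47.1. The separate ESC-FCS libraries had it at 18 proximal and 1 distal molecule, and 20 and 3, far from the ESC-FCS cells. Its distal site lies past the annotated end of the gene.

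**Figure D4:**
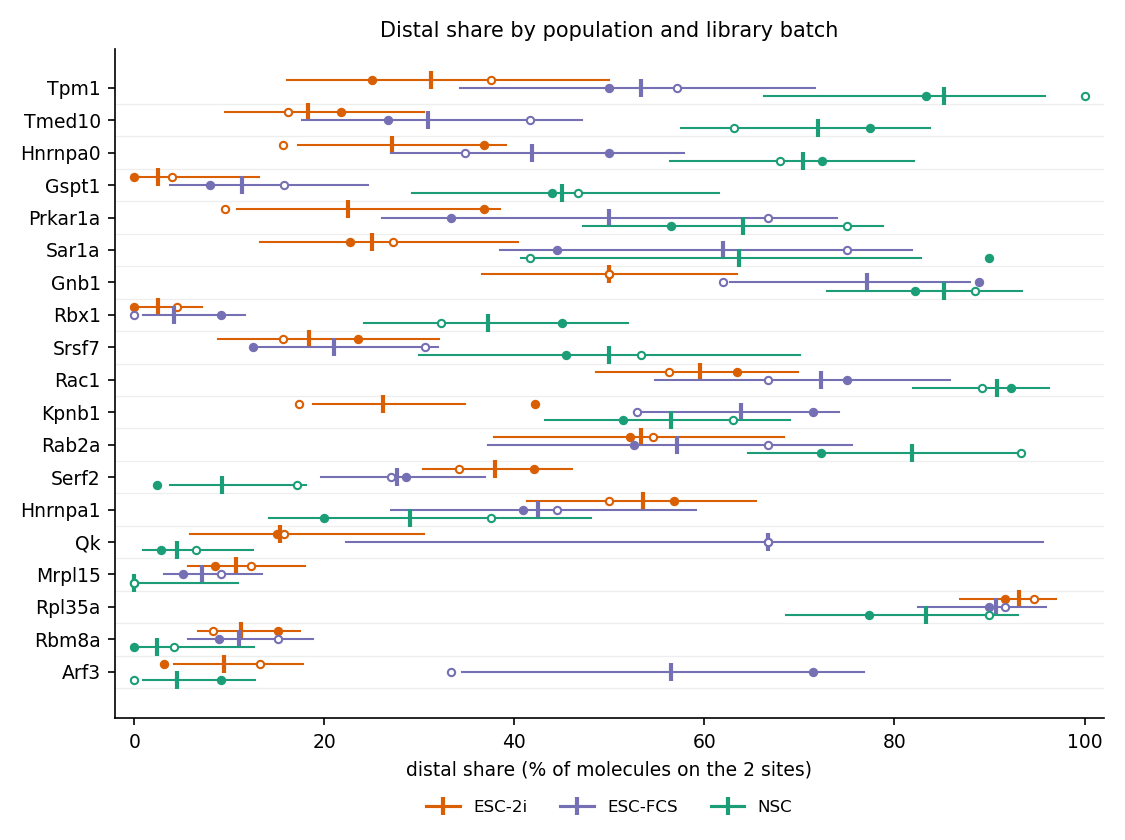
Distal share (percent) of the 12 genes with the largest positive and the 6 with the largest negative difference of NSC minus ESC-2i that held in all 4 batch pairs, and of Arf3. Ticks are populations with exact 95% intervals as lines, filled circles are batch 1 and open circles batch 2; in Tmed10, both NSC batches (77.4% and 63.2%) lie above every embryonic batch.

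RNA-binding and splicing proteins were the largest group, with 31 genes, but they came from the longest list. It held 87 genes and was written with earlier results of these data known. Of these, 54 had 2 sites and 31 were members, where 410 of all 1342 genes with 2 sites were. Between NSC and ESC-2i, 19 could be compared, with a median of 3.26 points beside 3.92 points over all genes with 2 sites. By the limit 4 were higher, against 11.9% of all, and 1 lower, against 1.86%. Hnrnpa0, Srsf7, Hnrnpc and the splicing kinase Srpk1 were the higher ones, and Hnrnpa1 was the lower one. Hnrnpa0, a nuclear ribonucleoprotein, had 51 proximal and 19 distal molecules in ESC-2i, 25 and 18 in ESC-FCS, and 16 and 38 in NSC. Its batches did not overlap between ESC-2i (36.8% and 15.6%) and NSC (72.4% and 68.0%), but the first pool was distal, at 4 proximal and 22 distal molecules, and the second stood at 19 and 18.

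Hnrnpc, which binds U-rich stretches of nascent transcripts, was at 19.0% (12.9% to 26.4%) for ESC-2i, 29.3% (20.6% to 39.3%) for ESC-FCS and 45.0% (29.3% to 61.5%) for NSC. Both pools were near the ESC-2i cells, with 386 proximal and 116 distal molecules, and 365 and 118. Srsf7, an SR splicing factor, was at 18.4% (8.76% to 32.0%), 21.1% (12.5% to 31.9%) and 50.0% (29.9% to 70.1%), on 49, 76 and 26 molecules, with pools of 43 proximal and 11 distal molecules, and 34 and 26, so NSC was 29.6 points above the first pool and 6.67 above the second. Celf1, the remaining member among the RNA-binding proteins known to act on 3′ end choice, had 79.4% in ESC-2i and 92.3% in NSC, with 13 molecules in NSC.

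Hnrnpa1, a ribonucleoprotein of splicing and export, had a lower distal share in both NSC batches than in every embryonic batch of cells, with 33 proximal and 38 distal molecules in ESC-2i, 23 and 17 in ESC-FCS, and 22 and 9 in NSC. That is 53.5% (41.3% to 65.5%), 42.5% (27.0% to 59.1%) and 29.0% (14.2% to 48.0%), and the pools, with 63 proximal and 102 distal molecules, and 112 and 111, were also above NSC by at least 20 points. Hnrnpa3 was lowest in ESC-FCS, though in reads ESC-FCS minus ESC-2i was -9.93 points in place of -29.8. It had 16 and 9 molecules in ESC-2i, 30 and 2 in ESC-FCS, and 18 and 14 in NSC, with 49 proximal and 3 distal molecules, and 34 and 4, in the ESC-2i pools. Hnrnpa2b1 did not differ beyond its intervals, with 76 proximal and 48 distal molecules in ESC-2i, 27 and 23 in ESC-FCS, and 37 and 21 in NSC. Ddx5, an RNA helicase, was mostly proximal, at 13.4% (9.26% to 18.4%), 17.7% (12.7% to 23.7%) and 25.2% (17.7% to 34.0%).

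Sf3a3, a subunit of the U2 snRNP, was at 65.9% for ESC-2i, 34.8% for ESC-FCS and 66.7% for NSC, on 41, 23 and 24 molecules, and its pair spans a microRNA gene. Caprin1, an RNA-binding protein of stress granules, was at 51.5% (38.9% to 64.0%), 78.6% (63.2% to 89.7%) and 56.5% (34.5% to 76.8%). Its higher share in ESC-FCS was also found in all 4 differences of separate libraries, from 24.9 to 39.2 points. Rbm8a, a subunit of the exon junction complex, had 134 proximal and 17 distal molecules in ESC-2i, 89 and 11 in ESC-FCS, and 41 and 1 in NSC, and its pools differed from each other, at 169 and 14, and 21 and 32. Qk, which binds RNA in glia, was 15.4% distal in ESC-2i and 4.48% in NSC, on 39 and 67 molecules, and the pools had 27 proximal and 0 distal molecules, and 29 and 2, below ESC-2i cells.

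Kpnb1, importin beta 1, carries cargo into the nucleus and is 1 of 9 nuclear transport genes, of which 2 could be compared between NSC and ESC-2i. It had 93 proximal and 33 distal molecules in ESC-2i, 30 and 53 in ESC-FCS, and 27 and 35 in NSC, or 26.2% (18.8% to 34.8%), 63.9% (52.6% to 74.1%) and 56.5% (43.3% to 69.0%). Both other populations were above ESC-2i, whose batches were 42.2% and 17.3%. Without the second ESC-2i batch, NSC minus ESC-2i was 14.2 points in place of 30.3. The pools, with 170 proximal and 64 distal molecules, and 230 and 56, were at the level of the ESC-2i cells. The ESC-FCS pool, with 91 and 43, and the control cells, with 75 and 55, were nearer to them than the main ESC-FCS cells were.

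Ran, the GTPase that sets the direction of nuclear transport, used its distal site rarely: 5.99% (3.46% to 9.55%) for ESC-2i, 4.70% (2.59% to 7.76%) for ESC-FCS and 15.0% (9.01% to 23.0%) for NSC, though the pools, with 167 proximal and 30 distal molecules, and 128 and 84, were at or above NSC. Xpot, the exporter of tRNA, was at 33.3%, 30.8% and 61.1%, on 18, 26 and 36 molecules, and the separate ESC-FCS libraries, with 12 proximal and 16 distal molecules, and 22 and 21, lay between. Nup50, a nuclear pore protein, was mostly distal, at 77.8%, 89.3% and 87.5%. Hdlbp, a many-domain RNA-binding protein that the study imaged beside Kpnb1, did not differ beyond its intervals, at 27.8% (18.3% to 39.1%), 31.6% (17.5% to 48.7%) and 30.3% (15.6% to 48.7%).

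Of 9 translation factors, 7 could be compared between NSC and ESC-2i, and NSC was higher in all 7 (median 14.9 points), where it was higher in 69.2% of all genes with 2 sites. NSC was above ESC-FCS in 4 of 7, beside 63.7% of all. For NSC minus ESC-2i only Gspt1 passed the limit, where 11.9% of all were higher by it. ESC-FCS was above ESC-2i in 8 of 9 (median 8.86 points), beside 56.7% of all (median 1.13 points). Gspt1, the release factor eRF3a, had 39 proximal and 1 distal molecule in ESC-2i, 39 and 5 in ESC-FCS, and 22 and 18 in NSC. The pools had 310 proximal and 2 distal molecules, and 330 and 9. Its distal site lies 3044 nt past the annotated end of the gene.

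Eif2s2, the beta subunit of initiation factor 2, was 10.6% (7.81% to 14.1%) distal for ESC-2i, 22.7% (16.9% to 29.4%) for ESC-FCS and 29.6% (21.4% to 38.8%) for NSC. The ESC-2i pools, with 469 proximal and 384 distal molecules, and 396 and 364, were above NSC, and in all 4 differences of separate libraries ESC-FCS was lower, by -23.5 to -19.8 points. Eif4b, a cofactor of the helicase eIF4A, was at 60.6% (50.3% to 70.3%), 87.7% (77.9% to 94.2%) and 78.0% (64.0% to 88.5%). In all 4 differences of separate libraries it was also higher in ESC-FCS, by 23.4 to 54.3 points. Eif5, which triggers GTP hydrolysis at the start codon, went from 37.5% to 80.0% between ESC-2i and ESC-FCS cells on 32 and 20 molecules, but was lower in ESC-FCS in all 4 differences of separate libraries, by -43.0 to -22.2 points. Eif4g2 was lower in ESC-FCS (20.2%) than in ESC-2i (35.2%) and NSC (41.2%). Etf1, the release factor eRF1, was at 57.8%, 64.5% and 62.5%.

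Among 9 genes of the cytoskeleton and calcium adaptors, 4 could be compared, with a median of 25.4 points for NSC minus ESC-2i. By the limit 3 were higher (Tpm1, Calm3 and the dynactin subunit Actr1b), against 11.9% of all genes with 2 sites. None was lower, against 1.86%. Tpm1, a tropomyosin that stabilises actin filaments, had 22 proximal and 10 distal molecules in ESC-2i, 14 and 16 in ESC-FCS, and 4 and 23 in NSC. Its sites lie in different exons. This was the largest difference of NSC minus ESC-2i, at 53.9 points, yet the pools were near NSC, with 23 proximal and 63 distal molecules, and 11 and 62, and in reads in place of molecules the difference was 11.8 points. Calm3, one of the calmodulin genes, was at 27.7% (18.4% to 38.6%) in ESC-2i and 50.0% (33.4% to 66.6%) in NSC, and its pools differed from each other, at 23 and 6 molecules, and 3 and 29. Marcks, an actin-binding substrate of protein kinase C, had 25 distal of 90 molecules in NSC and 1 distal molecule in each embryonic population, where the ESC-2i pools had 17 of 148 and 19 of 129 distal. Stmn2, a regulator of microtubules, had no molecule in NSC, and Dynll2, a dynein light chain, was mostly distal, at 72.4%, 72.2% and 81.6%.

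Of 15 chromatin genes, 5 could be compared between NSC and ESC-2i (median 11.7 points). By the limit none was higher, against 11.9% of all genes with 2 sites, and Cbx5 was lower, against 1.86%. Npm1, the nucleolar histone chaperone, had its sites in different exons and stood at 79.1% (76.7% to 81.3%) for ESC-2i, 86.3% (84.3% to 88.1%) for ESC-FCS and 92.4% (90.4% to 94.1%) for NSC. Its batches were 78.3% and 79.7%, 86.2% and 86.5%, and 93.0% and 91.7%, so no batches of different populations overlapped. The ESC-2i pools had it at 33 proximal and 1356 distal molecules, and 28 and 1295, above NSC, and the ESC-FCS pool at 256 and 391. Set, a histone chaperone and phosphatase inhibitor, had 22 proximal and 166 distal molecules in ESC-2i, 8 and 150 in ESC-FCS, and 0 and 113 in NSC. The count of 0 allows a proximal share of up to 2.65% in NSC.

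Cbx5, heterochromatin protein 1 alpha, was distal in ESC-2i at 91.1% (80.4% to 97.0%), and at 62.9% (44.9% to 78.5%) with serum, and it stood at 70.8% (48.9% to 87.4%) for NSC. The pools were mainly proximal, with 34 proximal and 16 distal molecules, and 31 and 14, so that the direction turned. Nap1l1, a nucleosome assembly protein, was at 31.5%, 39.6% and 35.8%. Hells, a chromatin remodeller, was at 22.7% and 15.1% in the embryonic populations, and Tmpo, a protein of the nuclear lamina, at 47.2% in ESC-2i and 75.0% in ESC-FCS, with ESC-2i pools of 14 proximal and 83 distal molecules, and 27 and 91.

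Of 10 ubiquitin genes, 2 could be compared between NSC and ESC-2i. Rbx1, the RING subunit of cullin ligases, had 117 proximal and 3 distal molecules in ESC-2i, 69 and 3 in ESC-FCS, and 32 and 19 in NSC. The ESC-2i pools held 2 proximal and 12 distal molecules, and 0 and 20, so the proximal site that dominated the cells was nearly missing there. The pair of Rbx1 thus had far fewer molecules in each pool than in the ESC-2i cells, though each pool had more molecules on genes. The cause was not tested. Usp48, a deubiquitinase, was at 33.7% in ESC-2i and 60.5% in ESC-FCS, and was higher in ESC-FCS by 53.4 to 69.3 points in the separate libraries. Nedd4, a HECT ligase, was at 61.8%, 61.2% and 68.5%. Mkrn1 had 5 molecules in NSC, all proximal. Ubl4a, which helps insert tail-anchored proteins into membranes, was at 20.0% in ESC-2i and 50.0% in ESC-FCS.

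Among the remaining genes of most molecules, Rpl22, a ribosomal protein, was proximal almost throughout, with 1349 proximal and 29 distal molecules in ESC-2i, 742 and 15 in ESC-FCS, and 251 and 31 in NSC. Its distal share was 2.10% (1.41% to 3.01%), 1.98% (1.11% to 3.25%) and 11.0% (7.59% to 15.2%). The ESC-2i pools held far fewer molecules at these sites, with 44 proximal and 20 distal, and 13 and 23. Yet they had 479391 and 494694 molecules on genes, beside 371397 for the ESC-2i cells. The loss of molecules was not explained or tested, so the shares of the pools are not set beside those of the cells for this gene. Scd2, a desaturase of fatty acids, was distal at 98.9%, 98.8% and 98.1%. Hsp90aa1 was distal at 95.5%, 96.6% and 98.3%. Rpl35a, a ribosomal protein, was at 93.1%, 90.7% and 83.3%, with none of the 10 hexamers before its proximal site, and in reads in place of molecules NSC minus ESC-2i was -1.38 points in place of -9.77. Mrpl15, a mitochondrial ribosomal protein, was at 10.7% and 7.08% in the embryonic populations, with 0 of 32 molecules distal in NSC, which allows up to 9.38%.

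Further differences of size involved other functions. Prkar1a, a regulatory subunit of protein kinase A, was at 22.5% (10.8% to 38.5%) in ESC-2i and 64.1% (47.2% to 78.8%) in NSC, with pools of 111 proximal and 92 distal molecules, and 65 and 97, between them. Tomm70a, an import receptor of mitochondria, was at 53.8%, 41.5% and 75.0%, with ESC-2i pools of 91 proximal and 48 distal molecules, and 114 and 52. Map4k4, a kinase upstream of JNK, was at 52.4% in ESC-FCS and 85.9% in NSC, and the separate ESC-FCS libraries had 3 proximal and 15 distal molecules, and 3 and 25. Zfp706, a zinc finger protein, was at 68.8%, 82.4% and 66.0%, while the ESC-2i pools were nearly all distal, with 6 proximal and 308 distal molecules, and 3 and 337. Serf2 had 98 proximal and 60 distal molecules in ESC-2i and 69 and 7 in NSC, while the pools held only 5 molecules at its sites, all distal. Snhg20, a noncoding host of small RNAs, was at 95.1% in ESC-2i and 52.8% in ESC-FCS, with 8 and 3 molecules in the pools, all distal.

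The 5 longest pairs with at least 50 molecules held 3 that were mostly proximal and 2 that were mostly distal. Dnajb6, a chaperone with sites 19286 nt apart, was at 27.3% in ESC-2i and 21.7% in ESC-FCS. Mpp6, a scaffold protein at 17765 nt, was at 78.3% in ESC-2i and all 10 of its molecules in NSC were distal. Lncenc1, a noncoding RNA of embryonic stem cells at 16231 nt, was at 27.9% and 7.69% in the embryonic populations and had no molecule at either site in NSC. Its distal site lies 16228 nt past the annotated end of the gene. The region between its sites touches an exon of Gm2379, so molecules of this neighbour cannot be told apart. Atf1, a CREB family factor at 14541 nt, was mostly proximal (16.7% and 12.0%), and its distal site lies 14537 nt past the annotated end of the gene. Gart, an enzyme of purine synthesis at 12004 nt, was mostly distal (75.0%, 65.4% and 78.9%).

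Between the embryonic media, 26 genes were past the limit in the single cells, and 18 of them had at least 20 molecules in each of the 4 separate libraries. Of the 13 higher in ESC-FCS, 6 were also higher in all 4 differences of ESC-FCS and ESC-2i libraries (Caprin1, Eif4b, Kpnb1, Srpk1, Tpm1 and Usp48) and 3 in none (Eif5, Gnb1 and Stmn2). Of the 5 lower, none was lower in all 4, and Cbx5, Hnrnpa3 and Lncenc1 were lower in none. Over all members compared, 37 to 45 were higher by the limit in the separate libraries and 25 to 32 lower, on 176 to 184 genes. The same rule met 21.1%, 18.4%, 20.9% and 17.4% of all genes with 2 sites for higher, and 14.9%, 14%, 13.2% and 13.7% for lower. Medians were 4.75 and 1.52 points for the ESC-FCS pool and 2.54 and 1.18 points for the control cells, minus the first and second ESC-2i pool.

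**Figure D5:**
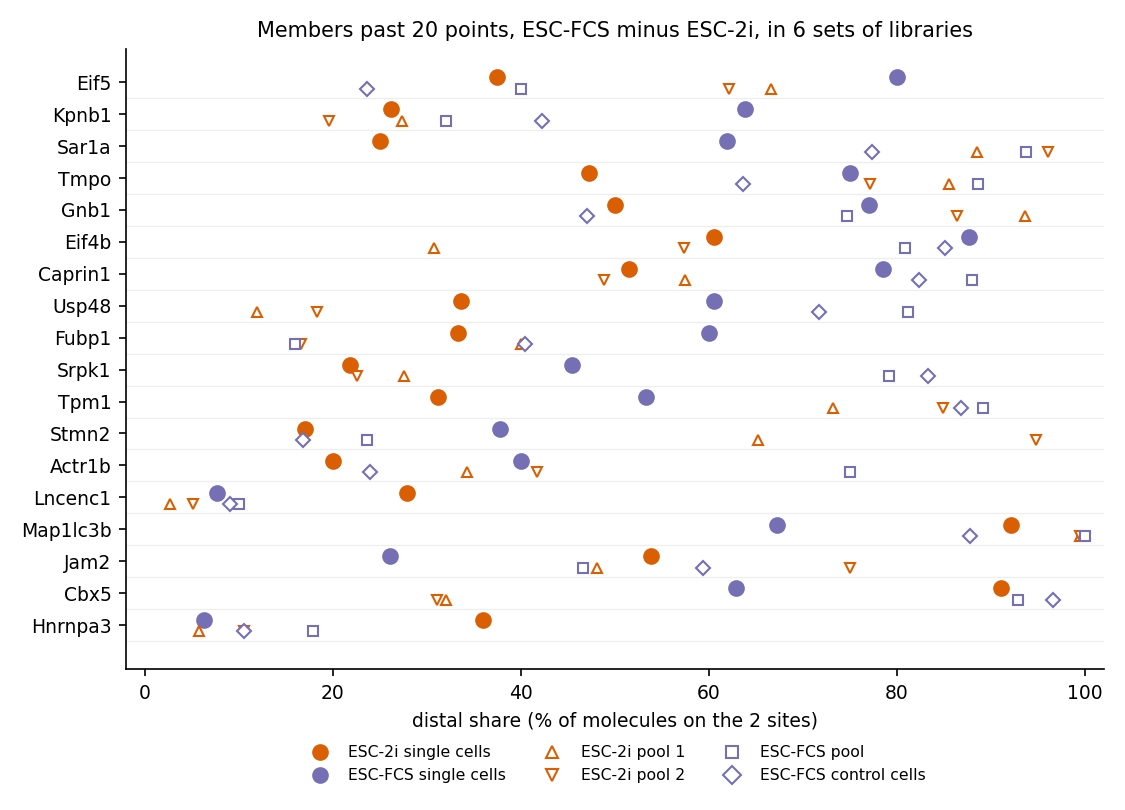
Distal share (percent) of the 18 genes past 20 points for ESC-FCS minus ESC-2i in single cells, in the single cells (filled circles) and in the 2 ESC-2i pools, the ESC-FCS pool and the ESC-FCS control cells (open symbols). For Usp48 and Caprin1 both kinds of library order the media alike, while Eif5, Stmn2 and Cbx5 turn.

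A list of 23 genes that encode the cleavage and polyadenylation machinery was measured. All had a molecule in ESC-2i, but 2 were at 0 in ESC-FCS and 3 in NSC. The list held CPSF and CSTF subunits and poly(A)-binding proteins. Summed over the 23 genes, ESC-2i had 26.8 molecules per 10000 (exact Poisson interval 25.1 to 28.5), ESC-FCS 30.8 (28.6 to 33.1) and NSC 29.0 (26.4 to 31.8). The poly(A)-binding protein gene Pabpc1 alone held 484, 333 and 180 of the 994, 721 and 448 molecules. Without it, a sum chosen after its values were seen, the levels were 13.7 (12.6 to 15.0), 16.6 (15.0 to 18.3) and 17.3 (15.3 to 19.5) per 10000, lowest in ESC-2i. The 20 RNA-binding proteins known to act on 3′ end choice summed to 34.7 (32.8 to 36.6), 39.4 (36.9 to 42.1) and 37.8 (34.8 to 41.0). Of the machinery, Cpsf6, a subunit of cleavage factor I, and Rbbp6 were themselves members. Cpsf6 was at 57.9% and 58.3% in the embryonic populations and at 8.33% (0.211% to 38.5%) in NSC on 12 molecules, and Rbbp6 had 2 molecules in NSC, too few to read.

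The signal before a site was set beside its use. Over 348 genes with both windows read, the median distal share was 54.5%. It was 60.7% for the 117 genes with AATAAA before the distal site alone, 50.9% for 159 with it before both and 48.0% for 37 with it before the proximal site alone. For 51 genes with none of the 10 hexamers before the proximal site, it was 73.2%. For NSC minus ESC-2i, the medians were 12.4 points over 22 genes with AATAAA before the distal site alone, 11.8 points over 51 with it before both, 5.63 points over 9 with it before the proximal site alone and 3.09 points over 9 with it before neither. These are descriptions over few genes.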

How the data were processed

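BATSeq libraries were prepared from single sorted cells and pools. Per the labels and methods, the authors sorted reads by batch and cell barcode, required a terminal stretch of A, aligned reads with GSNAP to mouse build GRCm38 with spike-in sequences, removed non-unique, short, A-rich and falsely primed reads, merged molecular identifiers and nearby positions, and assigned sites to genes. The submitters' processing notes also name R and HTSeq. The deposited values are counts of transcript molecules (and of reads) per cell and polyadenylation site, not normalized.

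All 144 cells were used, and 0 cell names lacked a sample. Genes were chosen from summed counts of molecules. Positions were read as starting from 0, and 1 was added. Annotation and transcripts came from GENCODE M21. Distal shares have exact Clopper-Pearson intervals and levels exact Poisson intervals (95%), and a count of 0 was given the limit of 3 counts. Molecules on genes per population were 371397, 234054 and 154565. Differences need at least 20 molecules on the pair in both populations, and the size limit was 20 percentage points. With 1 culture per population no test was made. In the separate libraries a site was matched within 12 nt. In their files the headers of the last columns, the class of a site and its distance to the annotation, stand exchanged, so these were read by position; the columns of counts were not affected. The computation was tested on simulated data.

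Genes named were, among those with 1 direction in all 4 batch pairs, the 12 and 6 of largest positive and negative difference for NSC minus ESC-2i, and the 6 and 4 for each other comparison. To these were added the 8 of most molecules, the 5 longest pairs of at least 50 molecules, Kpnb1 and Hdlbp, up to 4 of most molecules in each functional list, 3 on each side of a limit of the rule, and members of counts of 5 or fewer. The distal shares of 1 of these genes are not reported here. Actr1b, Srpk1 and genes named only for the separate libraries were chosen after their values were seen. The members and lists were chosen with earlier results of these data known. Alternatives changed the molecule and distance limits, site classes, unit, denominator, size limit, cells and batches. Python 3.11.15, numpy 2.4.6, pandas 2.3.3, scipy 1.17.1 and matplotlib 3.10.9 were used.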

Additional observations from a re-analysis of the deposited data

Results flagged for a closer look

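In 16 of the genes, the distal share of ESC-FCS minus ESC-2i turned between the single cells and the separate libraries. All 4 batch pairs of the cells had the same direction, and all 4 differences between ESC-FCS and ESC-2i libraries had the opposite. In the cells, 49 of 176 genes were higher and 26 lower in all 4 batch pairs. Each separate library also needed at least 20 molecules on the pair. The same was not counted over all genes with 2 sites. For the 16, the difference between both kinds of library was not tested. In the single cells, 9 were higher in ESC-FCS: Eif5 by 42.5 points (separate libraries -43.0 to -22.2), Gnb1 by 27.1 (-46.6 to -11.7), Stmn2 by 20.7 (-78.0 to -41.6), Ehd1 by 15.7 (-19.8 to -5.89), Zfp706 by 13.6 (-30.2 to -8.09), Rac1 by 12.7 (-21.6 to -13.3), Eif2s2 by 12.1 (-23.5 to -19.8), Atp2a2 by 10.8 (-12.1 to -3.32) and Npm1 by 7.21 (-37.5 to -22.3). The other 7 were lower in the single cells: Cbx5 at -28.2 points (60.9 to 65.5), Lncenc1 at -20.2 (3.93 to 7.30), Ddx21 at -13.5 (30.6 to 41.8), Tomm70a at -12.4 (20.4 to 33.1), Taf1d at -10.8 (1.38 to 21.8), Ncaph2 at -5.10 (1.42 to 3.40) and Cops2 at -0.845 (20.7 to 57.1).

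Signal was also present outside the sites described. In 16 genes the 2 most used sites were over 20000 nt apart, from Rbpms at 21317 nt to Cox16 at 113059 nt, and Polr1d had the most molecules, 133 and 85. Within the 410 genes, 1526 of 55664 molecules (2.74%) ended in introns (743) or upstream exons (783), and 20 such sites held at least 10 molecules.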

How the results depend on the processing

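Of 216 alternative values of the main results, 120 stayed close, 95 moved and 1 turned in direction. Of 266 values of genes named for the size of a difference, 235 stayed close and 31 moved, and none turned. These genes were chosen for 1 direction in all 4 batch pairs, so leaving out a batch could not turn them. The separate libraries were not among these values, and there Sar1a, Gnb1 and Rac1 turned against both ESC-2i pools. No paired analysis was possible because the results come from no test, and each population is 1 culture. Counting A after a site in genome sequence was not run, since no genome was used here; a version on transcripts was added after seeing the data, as were the versions without the 4 most used genes, with pairs in 1 exon alone, and with separate libraries in place of cells. Depth limits most genes: 94 could be compared in all 3 populations. Where not stated otherwise, the cause was not tested.

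Pooled distal shares are given in the order ESC-2i, ESC-FCS, NSC, and counts as higher and lower. At 20 molecules per site there were 155 members, with shares of 53.2% and 55.9% in the embryonic populations and a median of 4.27 points for ESC-FCS minus ESC-2i. At 2000 nt or more there were 197 members and shares of 65.6%, 67.4% and 69.7%. There, NSC minus ESC-2i had 3 and 2 genes, ESC-FCS minus ESC-2i had a median of -0.588 points, the value that turned, with 5 and 5, and NSC minus ESC-FCS had 6 and 1. These had fewer genes by construction. Without downstream sites the shares were 53.8%, 57.3% and 66.0%, with 2 lower genes for NSC minus ESC-2i and 5 for ESC-FCS minus ESC-2i. Without pairs touching another gene they were 49.6% and 54.1% in the embryonic populations, with 2 and 5 lower genes. In reads they were 50.6%, 56.2% and 61.7%, the medians 5.64 (NSC minus ESC-2i), 2.30 (ESC-FCS minus ESC-2i) and 2.49 points (NSC minus ESC-FCS), with 29 higher for ESC-FCS minus ESC-2i and 6 lower for NSC minus ESC-FCS. With all sites in the denominator they were 45.3%, 47.3% and 54.1%, with 2 lower for NSC minus ESC-2i and 1 for NSC minus ESC-FCS. As means over genes they were 48.2%, 53.2% and 60.2%, without A-rich sites 46.5%, 50.8% and 60.6%, and without the 4 most used genes 46.3%, 48.5% and 59.3%. Without Pabpc1, also left out after seeing the data, the summed level of the cleavage machinery was 13.7, 16.6 and 17.3 per 10000.

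With 10 molecules per population, NSC minus ESC-2i had a median of 11.8 points and 81 and 15 genes, ESC-FCS minus ESC-2i 4.55 points and 53 and 23, and NSC minus ESC-FCS 44 and 16. More genes enter at this setting, and a share can rest on as few as 10 molecules. At a limit of 10 points the counts were 46 and 7, 55 and 26, and 31 and 8, on the same 103, 176 and 98 genes as before. Neither setting was counted over all genes with 2 sites. With 1 direction in all batch pairs, 2 were lower for NSC minus ESC-2i. With pairs in 1 exon, 1 was lower for NSC minus ESC-2i, 5 for ESC-FCS minus ESC-2i, with a median of 4.18 points, and 1 for NSC minus ESC-FCS. With the first ESC-2i pool in place of cells 10 were lower for NSC minus ESC-2i, and with the second 12, with a median of 5.67 points. With the ESC-FCS pool NSC minus ESC-FCS had a median of 0.827 points and 14 lower, and with the control cells 8 lower.

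Leaving out a library batch, the pooled shares ran from 51.0% to 52.9%, 54.4% to 55.5% and 62.2% to 63.8%. The medians and counts that follow rest on fewer genes, since fewer reach 20 molecules without a batch. The counts were not made over all genes with 2 sites. For NSC minus ESC-2i, the median ran from 4.16 points without NSC batch 1 to 10.1 without NSC batch 2, with 6 (without NSC batch 1) to 20 higher and 1 to 4 lower. For ESC-FCS minus ESC-2i, the median ran from 2.20 to 5.77 points, with 6 (without ESC-FCS batch 1) to 13 higher and 4 to 8 lower. For NSC minus ESC-FCS, the median ran from 1.32 points without NSC batch 1 to 9.61, with 5 (without NSC batch 1) to 12 higher and 0 (without ESC-FCS batch 1) to 3 lower.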
